A study of Mus musculus with 4 samples.

Results

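The 9 genes described here encode protein kinases of the mitogen-activated protein kinase (MAPK) cascade: the MAP3K gene Map3k8, the MAP2K genes Map2k1, Map2k3 and Map2k4, the MAP kinase genes Mapk3, Mapk8, Mapk9 and Mapk14, and the MAPK-activated kinase gene Mapkapk2. They were chosen by gene symbol, and all 9 were found among the 14435 genes of the table and passed the filter on low counts. RNA was measured in RAW264.7, a long-established line of mouse macrophages, 12 hours after E. coli lipopolysaccharide (LPS), which TLR4 recognises, was added. The control group (n = 2 libraries) was transfected with a nonspecific shRNA, and the shMettl3 group (n = 2 libraries) with one that targets Mettl3, the gene of the methyltransferase that places N6-methyladenosine on RNA. LPS was given to both groups, so what LPS itself does to these genes was not measured. The labels do not say whether a group's libraries came from different cultures, or whether the transfected cells were clones, so p-values measure the spread between these libraries only. In 1 label field the shRNA of shMettl3 replicate 2 is named for METTL4, while its title and the series design name METTL3.

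In this cascade a MAP3K phosphorylates a MAP2K, and the MAP2K phosphorylates a MAP kinase on a threonine and a tyrosine of its activation loop. In macrophages TLR4 engages the cascade through IRAK kinases, the ubiquitin ligase TRAF6 and the MAP3K TAK1, and the MAP3K TPL2, the product of Map3k8, is released from the NF-kB precursor p105 to reach the ERK branch. The ERK, JNK and p38 branches act on transcription factors and, through the kinase MK2, on proteins that set the stability of cytokine mRNAs. Phosphorylation carries the signal, and RNA sequencing measures only the transcripts of the kinases.

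Total estimated counts lay between 16342313 and 17193639, and Mettl3 checked the labels, with 514 and 496 estimated counts in control cells against 194 and 195 after shMettl3 (log2 change -1.42, SE 0.10). Macrophage markers were expressed in every library. By the call rule given below 7 of 10 fell and 1 (Ptprc) rose, while 22.3% of all tested genes fell and 21.4% rose. Spi1 (log2 change -0.06) and Fcgr1 (0.83) were not called. Their summed TPM (transcript abundance scaled by gene length) over all 10 was 18730 to 19347 in the controls and 13262 to 13326 in the shMettl3 libraries. Lyz2 alone had 10293 and 9350 TPM in the controls and 5955 and 5779 in the shMettl3 libraries. Of 17 markers of fibroblasts, lymphocytes, epithelium and granulocytes, 7 were in the table and each stayed below 1 TPM. Their summed TPM was 0.12 and 0.17 in the controls and 1.10 and 0.55 in the shMettl3 libraries, where Col1a1 had 17 and 1 counts against 0 and 0. The part of these marker differences in the results below was not tested. In bulk RNA, fewer cells of a type and less RNA per cell cannot be told apart.

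Sequence upstream of the start site is shown for Map2k1, which rose in edgeR's test, and for the JNK genes Mapk8 and Mapk9, of which Mapk9 fell and Mapk8 was not called. RefSeq promoter windows on GRCm38.p6, a later build than the mm9 named for the deposited values, were found for 7 of the 9 genes, and the entries for Mapk3 and Map3k8 were missing. The windows are chr9:64253632-64253855 on the minus strand for Map2k1, chr14:33447159-33447408 on the minus strand for Mapk8 and chr11:49846501-49846750 on the plus strand for Mapk9. Each run reads 5′ to 3′ toward the start site, and the Map2k1 run of 224 bases stops where an annotated exon begins. Capitals mark the GC box GGGCGG and the CCAAT box on either strand.
Map2k1: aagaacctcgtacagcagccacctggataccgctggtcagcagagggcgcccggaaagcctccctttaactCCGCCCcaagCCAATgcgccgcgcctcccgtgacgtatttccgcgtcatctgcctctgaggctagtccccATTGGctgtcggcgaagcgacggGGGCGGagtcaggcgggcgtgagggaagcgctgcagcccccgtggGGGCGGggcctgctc
Mapk8: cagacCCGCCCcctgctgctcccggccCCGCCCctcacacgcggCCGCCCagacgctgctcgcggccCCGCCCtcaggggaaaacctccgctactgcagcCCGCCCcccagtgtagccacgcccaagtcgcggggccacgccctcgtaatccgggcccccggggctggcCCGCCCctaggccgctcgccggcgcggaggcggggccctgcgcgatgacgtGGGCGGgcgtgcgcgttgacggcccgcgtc
Mapk9: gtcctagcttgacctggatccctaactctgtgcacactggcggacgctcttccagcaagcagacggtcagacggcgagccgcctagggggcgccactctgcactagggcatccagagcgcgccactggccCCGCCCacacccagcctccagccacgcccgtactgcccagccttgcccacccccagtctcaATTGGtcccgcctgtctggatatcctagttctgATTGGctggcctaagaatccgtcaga
RefSeq lists 2 windows for Mapk8, and the other, chr14:33411025-33411274 on the minus strand, held 0 GC boxes and 0 CCAAT boxes and is not printed. The Mapk8 window shown held 7 GC boxes and 0 CCAAT boxes, the Mapk9 window 1 and 2, and the printed Map2k1 stretch 3 and 2. Over all 32851 windows of 250 bases, 32.7% held a GC box and 33.8% a CCAAT box, on either strand. TATA box (TATAAA), AP-1 (TGANTCA), CRE (TGACGTCA), ETS (CCGGAAG) and E-box (CACGTG) letters were also searched on both strands, as were an NF-kB and an NRF1 motif, and none was found in these windows. The shares of all windows with them were, in that order, 12.4%, 6.75%, 1.55%, 6.91%, 6.02%, 1.41% and 0.782%. No matches of different motifs overlapped.

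Of the 9 kinases 5 fell and 1 rose in the shMettl3 libraries. Map2k3, Mapk3, Mapk14, Mapk9 and, by a smaller amount, Map2k4 fell, Map2k1 rose, and Mapk8, Map3k8 and Mapkapk2 were not called. The call rule was a Benjamini-Hochberg adjusted p under 0.05 over all 11035 tested genes, from edgeR's quasi-likelihood test, and every edgeR p below is that adjusted p. By that rule 43.7% of all tested genes were called, 21.4% as risen and 22.3% as fallen, so 6 called of 9 is to be read against a large background. With library size alone as the scaling 3266 genes rose and 1832 fell, and of the 9 kinases 3 rose and 4 fell. With the authors' FPKM and TPM 2 of the 9 rose and 4 fell. The median log2 change (shMettl3 over control) was -0.23 over the 9 kinases and 0.01 over all tested genes. Library size alone moved the median of all genes to 0.11 and TPM to 0.15. CPM and edgeR's log2 changes therefore depend on the TMM factors, except where another scaling is named. TPM levels and sums of paralogs carry no TMM factor, and their changes are to be read against the TPM median of 0.15. CPM (counts scaled to a common library size with TMM factors) did not overlap between the groups for any of the 9, and this held for 73.4% of all tested genes.

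**Figure D1:**
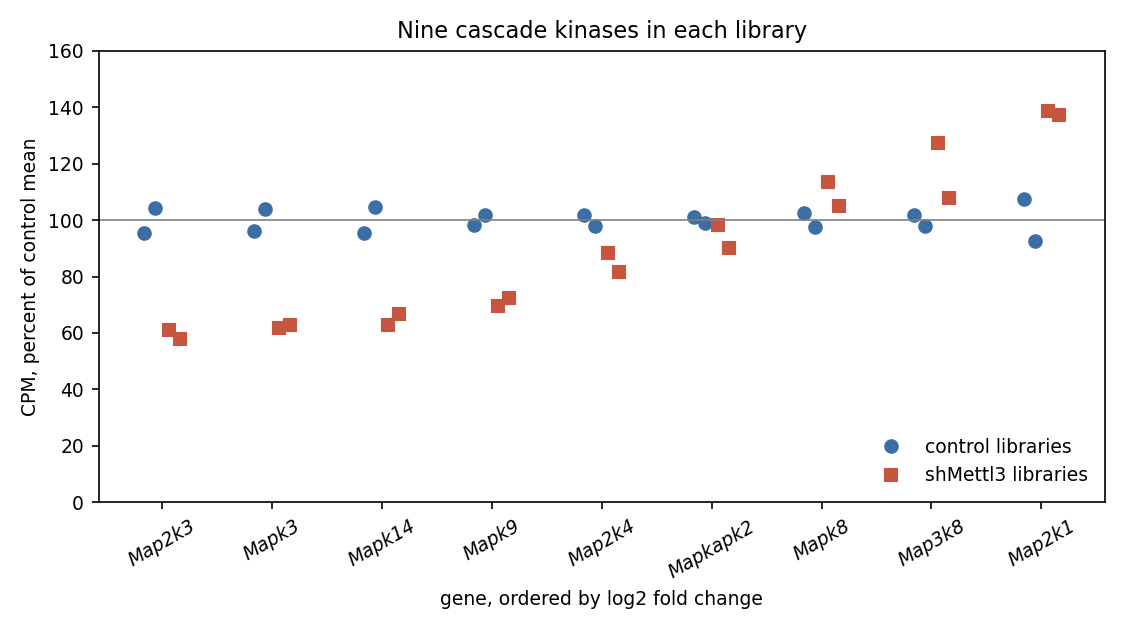
CPM of each kinase in each library as a percent of its control mean, with circles for the 2 control libraries and squares for the 2 shMettl3 libraries, ordered along the x axis by log2 change. Map2k3, Mapk3, Mapk14 and Mapk9 lie well below the control libraries in both shMettl3 libraries and Map2k1 well above, while Mapkapk2, whose direction turned with library size, FPKM and TPM, lies close to them.

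The levels of the 9 transcripts spanned a wide range on the TPM scale. In the controls the order ran from Mapkapk2 (585 and 556 TPM) through Map2k1 (192 and 160), Mapk3 (145 and 152), Map2k3 (139 and 147), Mapk14 (54.6 and 60.02), Map2k4 (32.0 and 29.5), Mapk9 (20.9 and 20.96) and Mapk8 (11.5 and 10.6) to Map3k8 (10.5 and 9.71). Mapk3 and Map2k3 overlapped in the controls, and Mapk8 and Map3k8 were separated by less than the spread of either. The same order of mean levels held in the shMettl3 libraries, where Mapk8 (14 and 12.9 TPM) and Map3k8 (14.3 and 12.0 TPM) overlapped. Mapkapk2 stood at the 98.3 percentile of the genes with a TPM above 0 and Map3k8 at the 53.9 percentile.

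Map3k8 encodes TPL2, the MAP3K that phosphorylates MEK1 in macrophages given LPS. It went from 255 and 245 counts in control cells to 322 and 282 after shMettl3, which is 15.3 and 14.8 CPM against 19.2 and 16.2. Both shMettl3 libraries were above both controls, but the lower of them by little. The log2 change of 0.23 (SE 0.12, 95% interval -0.03 to 0.49) was not called (edgeR adjusted p = 0.133). It was called with library size alone (0.33), with FPKM (0.29) and with TPM (0.35), so the call depends on the scaling. Nfkb1, whose p105 product holds TPL2 inactive, had a log2 change of 0.03 (SE 0.07), and Tnip2, which encodes the TPL2 partner ABIN2, of 0.05 (SE 0.09). Neither was called.

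Map2k1 encodes MEK1, a kinase that activates ERK. It went from 4649 and 3996 counts in control cells to 6068 and 6221 after shMettl3, which is 280 and 241 CPM against 361 and 358. The controls differed from each other, and both shMettl3 libraries lay above the higher control. The rise was 0.46 on the log2 scale (SE 0.08, edgeR adjusted p = 9.87e-04), to 138% of the control level. Map2k2, which encodes its paralog MEK2, had 2646 and 2691 counts against 2383 and 2490. Its log2 change of -0.17 (SE 0.07) was not called (edgeR adjusted p = 0.057), and without control replicate 1 it was (-0.20, adjusted p = 0.0226), as it was with the replicate block and where low counts were not filtered. The TPM of both ERK MAP2K genes together was 301 and 267 in the controls and 374 and 372 in the shMettl3 libraries, and Map2k1 was 63.7% and 59.8% of it against 71.8% and 71.4%. The exact two-sided permutation test over libraries gave p = 0.333 for this share and for the sum, which is the smallest p that 2 libraries against 2 allow. It gave this value for each share and sum of paralogs described below.

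Mapk3 encodes ERK1. It went from 2545 and 2740 counts in control cells to 1651 and 1740 after shMettl3, which is 153 and 165 CPM against 98.2 and 100.01. Both shMettl3 libraries were well below both controls, at 62.3% of the control level. The log2 change was -0.68 (SE 0.07, edgeR adjusted p = 2.54e-05). The ratio of Map2k1 to Mapk3 in TPM, kinase to substrate, was 1.32 and 1.05 in the controls and 2.67 and 2.59 in the shMettl3 libraries.

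Map2k3 encodes MKK3, an activator of the p38 kinases, and had the most negative log2 change of the 9 in edgeR's test. It went from 3025 and 3300 counts in control cells to 1958 and 1919 after shMettl3, which is 182 and 199 CPM against 116 and 110. The shMettl3 libraries were close to each other, at 59.5% of the control level. The log2 change was -0.75 (SE 0.07, edgeR adjusted p = 1.88e-05). Map2k6, which encodes the other dedicated p38 activator MKK6, had 0 and 0 counts in control cells and 1 and 0 after shMettl3, so nearly all MAP2K transcripts dedicated to p38 came from Map2k3.

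Mapk14 encodes p38 alpha, the main p38 kinase of macrophages. It went from 1971 and 2152 counts in control cells to 1310 and 1439 after shMettl3, which is 119 and 130 CPM against 77.9 and 82.7. The fall left 64.7% of the control level in libraries that did not overlap the controls (log2 change -0.63, SE 0.08, edgeR adjusted p = 6.37e-05). Mapk12, which encodes p38 gamma, rose from a low level, with 27 and 29 counts against 135 and 167 (log2 change 2.38, SE 0.20, edgeR adjusted p = 6.03e-06). Mapk11, which encodes p38 beta, had 158 and 194 counts against 168 and 209, and its log2 change of 0.06 (SE 0.15) was not called and turned negative without control replicate 1 or shMettl3 replicate 2. Mapk13, which encodes p38 delta, had 8 to 15 counts, and a change of -0.62 (SE 0.41) was not detectable at this depth.

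Mapk14 therefore took a smaller share of the p38 transcripts in the shMettl3 libraries. It was 85.6% and 85.8% of the summed p38 TPM in the controls and 69.8% and 68.0% in the shMettl3 libraries. Mapk12 was 2.68% and 2.07% in the controls and 16.3% and 17.1% in the shMettl3 libraries. The summed p38 TPM of 63.8 and 69.9 in the controls and 58.2 and 62.7 in the shMettl3 libraries did not overlap between the groups. Map2k3 and Mapk14, activator and substrate, fell by similar amounts, and their TPM ratio was 2.54 and 2.44 in the controls and 2.37 and 2.14 in the shMettl3 libraries.

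**Figure D2:**
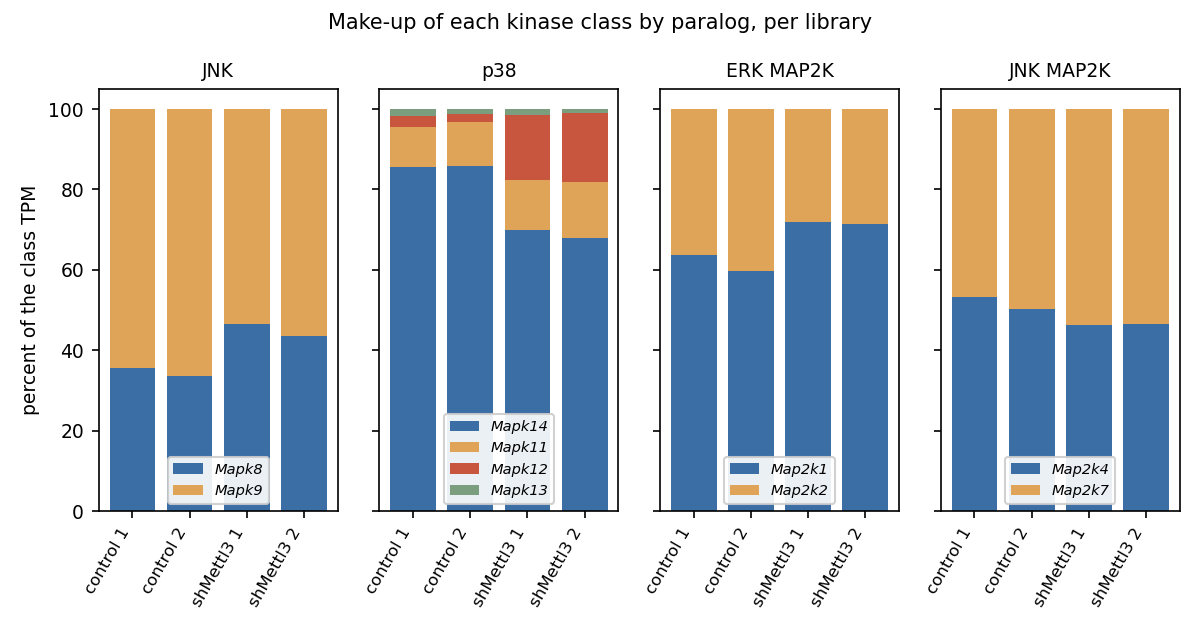
Stacked bars give each paralog's percent of the summed TPM of its class in each of the 4 libraries, for JNK, p38, the ERK MAP2K and the JNK MAP2K genes. The Mapk9 share is lower in both shMettl3 libraries (53.6% and 56.6%) than in both controls (64.5% and 66.5%), and Mapk12 widens within p38 from 2.68% and 2.07% to 16.3% and 17.1%.

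Mapkapk2 encodes MK2, the p38 substrate that acts on mRNA-binding proteins such as tristetraprolin. It went from 17258 and 16909 counts in control cells to 16984 and 16151 after shMettl3, which is 1039 and 1019 CPM against 1010 and 928. shMettl3 replicate 1 lay just below the controls. The log2 change of -0.09 (SE 0.07, 95% interval -0.24 to 0.07) was not called, and its sign turned with library size alone (0.01), FPKM (0.00) and TPM (0.06). Its interval leaves out a fall as large as that of Mapk14. The ratio of Mapkapk2 to Mapk14 in TPM was 10.7 and 9.27 in the controls and 15.3 and 13.3 in the shMettl3 libraries.

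Map2k4 encodes MKK4, an activator of JNK that can also act on p38. It went from 1234 and 1185 counts in control cells to 1083 and 1033 after shMettl3, which is 74.3 and 71.4 CPM against 64.4 and 59.4. The fall of 0.23 on the log2 scale left 85.0% of the control level (SE 0.07, edgeR adjusted p = 0.0255), the smallest change called among the 9. The call was lost with library size alone (-0.14), FPKM (-0.15), TPM (-0.10) and DESeq2 (-0.24, adjusted p = 0.0953), and without shMettl3 replicate 1 (-0.29) or shMettl3 replicate 2 (-0.18, adjusted p = 0.274). Its TPM of 32.0 and 29.5 in the controls overlapped the 30.1 and 27.4 of the shMettl3 libraries. Map2k7, which encodes the JNK activator MKK7, had a log2 change of 0.06 (SE 0.08) that was not called, and its sign turned without control replicate 1 and without shMettl3 replicate 1. Map2k4 was 53.1% and 50.2% of the TPM of this pair in the controls and 46.3% and 46.6% in the shMettl3 libraries.

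Mapk8 and Mapk9 encode JNK1 and JNK2. Mapk9 went from 1027 and 1061 counts in control cells to 735 and 792 after shMettl3, which is 61.8 and 63.9 CPM against 43.7 and 45.5. Replicates lay close together in both groups, and the fall to 71.0% of the control level was -0.49 on the log2 scale (SE 0.07, edgeR adjusted p = 3.08e-04). Mapk8 went from 631 and 599 counts in control cells to 706 and 677 after shMettl3, which is 37.97 and 36.1 CPM against 42.0 and 38.9. Its log2 change of 0.13 (SE 0.08, 95% interval -0.05 to 0.31) was not called, though library size alone called it (0.22, adjusted p = 0.0454). The interval of Mapk8 leaves out a fall as large as that of Mapk9. Mapk9 was 64.5% and 66.5% of the JNK TPM in the controls and 53.6% and 56.6% in the shMettl3 libraries, while the summed TPM was 32.4 and 31.5 against 30.2 and 29.6. The third JNK gene, Mapk10, was not analysed here.

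**Figure D3:**
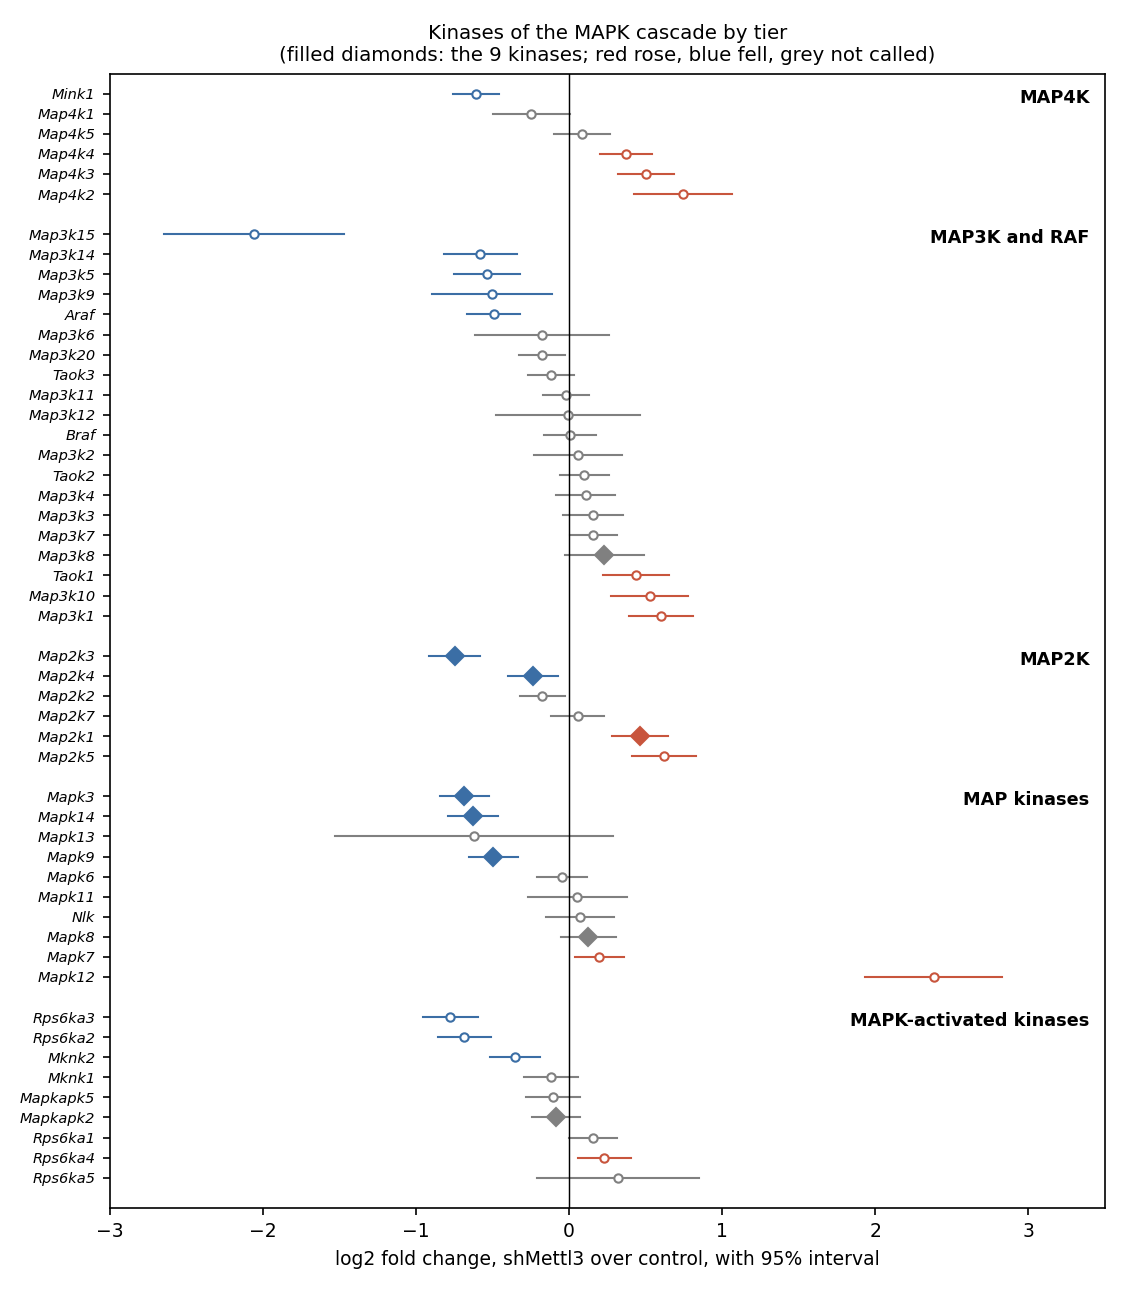
Log2 fold change (x axis, shMettl3 over control) with its 95% interval for the 9 kinases (filled diamonds) and the 42 other tested kinases of the cascade (open circles), grouped by tier, with red for genes that rose, blue for genes that fell and grey for genes not called. Map2k3, Mapk3, Mapk14 and Mapk9 lie at the low end of their tiers, as does Mapk13 (-0.62), which was not called. Mapk12, at 2.38, lies farthest to the right.

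The other kinases of the cascade moved in both directions. Of 42 tested, 10 rose and 9 fell, with a median log2 change of 0.03. Over all tested genes 21.4% rose and 22.3% fell, and the main count of each list below is to be read against those shares. Counts with another scaling, DESeq2 or limma-voom are to be read against the whole-table counts of that setting, given above. Among the other MAP kinases 2 of 6 rose and 0 fell in edgeR's quasi-likelihood test (Mapk12 and Mapk7). At an unadjusted p below 0.05 the numbers were 2 and 0, in DESeq2 1 and 0 and in limma-voom 2 and 0. Of the other 3 tested MAP2K genes Map2k5, the activator of ERK5, rose from 23.5 to 36.1 CPM (log2 change 0.62, SE 0.09). Mapk7, which encodes ERK5 itself, rose by 0.20 (SE 0.07), a call lost without control replicate 1 and without either shMettl3 library. The call was also lost with DESeq2, with edgeR without robust fitting and where low counts were not filtered.

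Upstream, 3 of 19 other MAP3K and RAF genes rose and 5 fell, with a median of -0.01, and with library size alone 6 rose and 4 fell, with FPKM 4 and 4, and with TPM 5 and 4. Map3k1, a MAP3K of the JNK branch, rose from 18.8 to 28.5 CPM (0.60, SE 0.09), and Map3k10 (0.53) and Taok1 (0.44) rose as well. Map3k14, which encodes NIK of noncanonical NF-kB signalling (-0.58), and Map3k5, which encodes the stress kinase ASK1 (-0.53), fell. Araf fell (-0.49, SE 0.08), while its relative Braf (0.01, SE 0.08) and the TAK1 gene Map3k7 (0.16, SE 0.07) were not called. These 3 were chosen after their values were seen. Of 6 MAP4K genes 3 rose (Map4k2 0.74, Map4k3 0.50 and Map4k4 0.37) and Mink1 fell (-0.61). Without control replicate 1 the number of MAP4K genes that fell was 2.

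The link from TLR4 to the MAP3K genes held few calls. Of 13 tested genes 0 rose and 1 fell in edgeR's quasi-likelihood test, with 1 and 2 at an unadjusted p below 0.05, and 0 and 1 in both DESeq2 and limma-voom. The gene that fell was Irak1, a kinase that carries the signal from MyD88, from 70.1 to 54.2 CPM (-0.37, SE 0.08). Its call was lost without shMettl3 replicate 2, and with TPM. Leaving out control replicate 1 gave 1 that rose and 2 that fell, control replicate 2 gave 0 and 3, and shMettl3 replicate 2 gave 0 and 0. The direction of the calls turned with the scaling, with 1 and 1 for library size alone and for FPKM and 2 and 0 for TPM. Traf6, singled out with its values known, stood at 0.05 (SE 0.08) and was not called. At the entry from growth factor receptors, 2 of 14 tested genes of the RAS module rose and 3 fell, or 3 and 2 with library size alone, 1 and 2 with FPKM and 2 and 2 with TPM. Rasgrp4, a RAS exchange factor of myeloid cells whose counts were not whole numbers, fell from 18.4 to 2.86 CPM (-2.68, SE 0.16), and the adaptor gene Shc1 fell (-0.49, SE 0.07). The 2 that rose, Sos1 and Spred1, lost their calls without control replicate 2 and without either shMettl3 library. Sos1 also lost its call with DESeq2, FPKM and the replicate block, and where low counts were not filtered.

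Of 10 tested genes for scaffolds and other proteins that bind or anchor kinases of a branch, 1 rose and 4 fell. Spag9, which encodes the JNK scaffold JIP4, rose from 65.5 to 96.2 CPM (0.55, SE 0.07). Arrb1, which encodes beta-arrestin 1, fell from 46.0 to 18.4 CPM (-1.32, SE 0.14), and Lamtor2, part of a late endosomal anchor of MEK1, fell (-0.58, SE 0.08). The number that fell was 2 without shMettl3 replicate 1, and with library size alone and FPKM, and with TPM 2 rose and 2 fell.

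Below the MAP kinases, 1 of 8 other MAPK-activated kinases rose and 3 fell. The ribosomal S6 kinase genes Rps6ka3 (-0.78, SE 0.08) and Rps6ka2 (-0.68, SE 0.08), which encode ERK-activated RSK kinases, fell, as did Mknk2 (-0.35, SE 0.07), a kinase of the initiation factor eIF4E. Rps6ka4, which encodes MSK2, rose by 0.23 (SE 0.08). Its call was lost with DESeq2, without control replicate 1 and without either shMettl3 library. The number that rose was 2 without control replicate 2 and with library size alone and FPKM, and with TPM 2 rose and 2 fell. Among RNA-binding and other substrates of MK2, 4 of 7 rose and 1 fell, with a median of 0.44. Zfp36, which encodes tristetraprolin, rose from 278 to 376 CPM (0.44, SE 0.07), and Lsp1 (0.82) and Rbm7 (0.82) rose. Zfp36l2, a relative of Zfp36, fell from 148 to 81.2 CPM (-0.87, SE 0.08). Without control replicate 1 the number of these that fell was 2.

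The dual-specificity phosphatases that remove the activating phosphates had 4 of 10 genes rise and 3 fall. Dusp6, a phosphatase for ERK, rose from 24.4 to 53.1 CPM, and Dusp2 from 10.8 to 24.5 CPM. Dusp16, a phosphatase for JNK, rose from 51.2 to 79.1 CPM. Dusp1, which acts on p38 and JNK, fell from 49.8 to 23.5 CPM, and the ERK phosphatase genes Dusp7 (-0.73) and Dusp5 (-0.60) fell. Of 19 transcription factors phosphorylated by MAP kinases or by the kinases they activate, 8 rose and 3 fell. The numbers were 12 and 3 with library size alone and 13 and 3 with TPM at a pseudocount of 0.1. Elk4, a ternary complex factor, rose from 10.7 to 21.8 CPM (1.03, SE 0.11) and Ddit3 from 12.3 to 20.2 CPM, whereas Fos fell from 93.3 to 26.0 CPM, Myc from 69.3 to 37.8 CPM and Mef2d from 155 to 98.8 CPM. Of 8 tested genes whose RNA is used as a readout of ERK activity Dusp6 rose and Phlda1 (-0.67, SE 0.09) and Ccnd1 (-0.49, SE 0.10) fell. Over the 120 tested pathway genes outside the 9 kinases, 29 rose and 26 fell, or 39 and 22 with library size alone and 39 and 20 with TPM. In the main fit 21.4% of all tested genes rose and 22.3% fell. Of all 11035 tested genes 3266 rose and 1832 fell with library size alone, and 3527 and 1513 with TPM.

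The 9 kinases were uneven in sequence features as well. In the longest coding transcript of GENCODE M21, the letters GGACT, which fit the consensus methylated by METTL3, occurred between 0 and 9 times. Map2k3 held 7 in 2198 bases, or 3.18 per kilobase, against a median of 1.05 per kilobase over 10851 tested genes. Mapk3 held 0 in 1800 bases. Map2k1 held 1 (0.41 per kilobase), and Mapk14 held 4 (1.11 per kilobase). Map3k8 held 6 (2.34 per kilobase) and Mapk8 held 9 (1.56 per kilobase). Mapk9 held 3 (0.64 per kilobase), Map2k4 held 5 (1.35 per kilobase) and Mapkapk2 held 3 (1.05 per kilobase). Of the 9 genes 6 lay above the median, and the quartiles over the tested genes were 0.64 and 1.51 per kilobase. These are counts of letters, and methylation was not measured here. No exon of the 9 genes overlapped an exon of another gene in that annotation, and all of their estimated counts were whole numbers, whereas 12.5% of all genes had counts that were not.

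The genes most like the ends of the range were named by the distance between log2 CPM profiles over the 4 libraries, each centred on its own mean, among 8312 genes with a mean of at least 10 CPM. Nearest to Map2k1 were Cul5 (distance 0.02, log2 change 0.45), Vps4b (0.03 and 0.47) and Zbtb41 (0.03 and 0.50). Nearest to Map2k3 were Slc35f6 (0.02 and -0.74), Abcb4 (0.03 and -0.73) and Clec4d (0.03 and -0.78). A short distance over these 4 libraries entails a similar log2 change, so the likeness of the changes follows from the ranking.

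**Figure D4:**
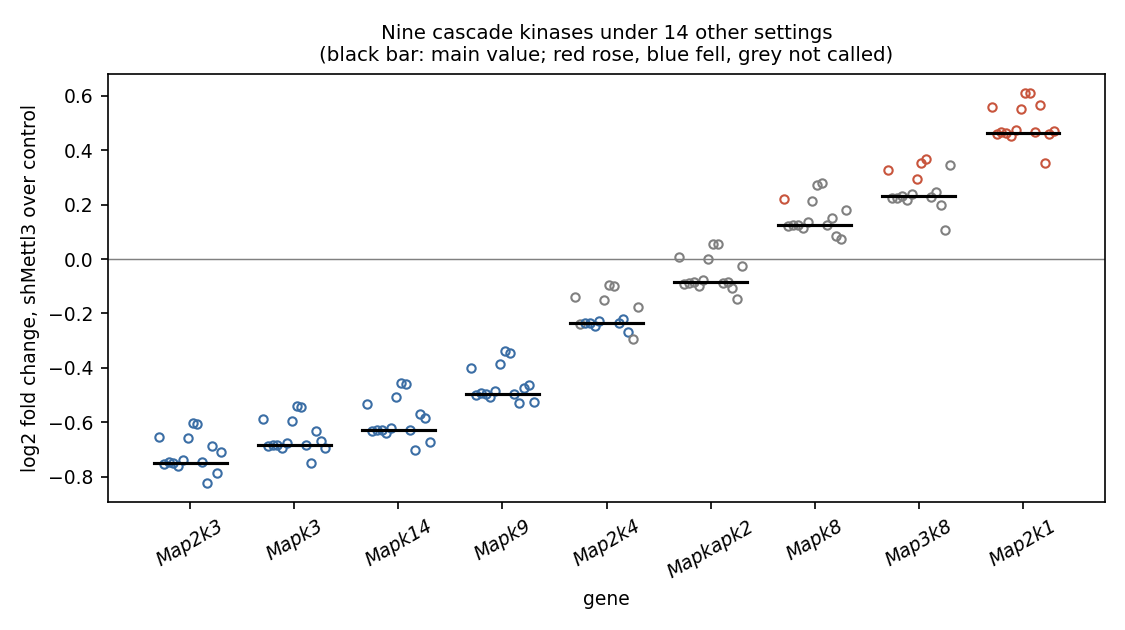
Log2 fold change (y axis, shMettl3 over control) of each kinase under 14 other settings (open circles, red for rose, blue for fell, grey for not called) with the main value as a black bar. Map2k3, Mapk3, Mapk14 and Mapk9 fell and Map2k1 rose under every setting run, and Mapkapk2 crosses 0 with library size, FPKM and TPM.

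Under all 14 other settings run, Map2k3 (-0.82 to -0.60), Mapk3 (-0.75 to -0.54), Mapk14 (-0.70 to -0.46) and Mapk9 (-0.53 to -0.34) kept their direction and call, as did Map2k1 (0.36 to 0.61).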

How the data were processed

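RNA was sequenced from 2 control and 2 shMettl3 libraries of RAW264.7 cells, grouped by sample title. Poly(A)-primed cDNA was amplified by PCR and read as single ends on a BGISEQ-500, per the labels' protocols. The protocol marks no strand and no molecular identifiers. The authors deposited, for 14435 genes and each library, a TPM, an FPKM and an estimated count (expected count). RSEM 1.2.12, Bowtie2 2.2.5, HISAT2 2.0.4 and the build mm9 are named, without their roles, per the submitters' processing notes. Annotation, filters and any count settings were not given in the sources used here.

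Counts were rounded and tested with edgeR 4.0.16 (R 4.3.3, limma 3.58.1): TMM, filterByExpr (minimum count 10, minimum total 15), robust quasi-likelihood fit on the group, and Benjamini-Hochberg adjustment over 11035 genes. 3400 genes were below the filter. Standard errors are the log2 fold change over the root of F. The 95% intervals use 2 residual degrees of freedom plus prior degrees of freedom drawn from all genes (median 9.07). The common biological coefficient of variation was 0.068. Replicates were compared before averaging, and chi-square per degree of freedom across genes was 11.5 (controls) and 4.15 (shMettl3).

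The 9 members and 12 lists of other pathway genes were chosen with earlier results of these data known, and a few genes are not reported here. Named genes are the 9 members, their close paralogs and the partners of Map3k8, and from each list up to 3 called rises and 3 called falls, the largest whose groups do not overlap and whose higher mean is at least 5 CPM. Alternatives were DESeq2 1.42.0, limma-voom, edgeR without robust fitting, other scalings and filters, the replicate number as a block, and leaving out each library. Limma was also run on log2(FPKM + 0.5), log2(TPM + 0.5) and log2(TPM + 0.1). FPKM and TPM fold changes are on that pseudocount scale, which understates changes of low genes. Symbols turned into dates (21) were restored through Entrez identifiers.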

Additional observations from a re-analysis of the deposited data

How the results depend on the processing

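The number of called genes over the whole table was 4826, and 3095 to 5324 with 1 library left out (3095 without shMettl3 replicate 1). For the 9 kinases it was 6, and 5 to 6 with 1 library left out, and for the 120 other pathway genes 55, and 44 to 58. A fit without 1 library assumes that the lone sample of its group varies like the other group. With the replicate number as a block 5116 genes, 6 of the 9 kinases and 56 of the other pathway genes were called. The deviations of same-numbered libraries correlated at 0.15 across genes, and the labels give no shared culture or day, so the numbers were not taken as pairs. The block added a call for Map2k2 and ended that of Sos1 among the genes named. Mapkapk2 had log2 fold changes of 0.0090 with library size alone, 0.0012 with FPKM, and 0.0564 and 0.0565 with TPM at pseudocounts of 0.5 and 0.1, against -0.0858, and was not called in any of them. With 1 library left out Map2k7 ranged from -0.0178 to 0.13 (below 0 without control replicate 1 or shMettl3 replicate 1), and Mapk11 from -0.0980 to 0.21 (below 0 without control replicate 1 or shMettl3 replicate 2). Of the 52 other genes named by rule, Map2k2, Map2k7, Mapk11, Mapk13, Nfkb1 and Tnip2 had no call in the main fit to lose. Among the rest 9 lost their call under at least 1 alternative (Mapk7, Irak1, Rps6ka4, Hras, Mapk8ip3, Mknk2, Spred1, Sos1 and Map3k9), and the causes were not tested. Within a library TPM is FPKM times a constant, so shares of paralogs are the same in both units apart from rounding. Comparing the units therefore does not check the shares. The 95% intervals of Mapk8 (-0.05 to 0.31) and Map3k8 (-0.03 to 0.49) cross 0. They draw on variance shared across all genes, so they do not show the precision of 2 libraries a group alone.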
